A study of Rattus norvegicus with 105 samples.

Results

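The layers of the cerebral cortex hold different classes of neuron, and 34 genes that mark these layers or the projection neurons in them were followed in rat frontal cortex. They comprised 13 genes of the upper layers, 18 of the deep layers and 3 expressed by projection neurons in general. A gene was represented by the probe set that carries its symbol in the platform's annotation, and by the one with the highest mean signal where there were several. By this rule 32 of the 34 had a probe set, out of 14217 gene symbols on the array. Unc5d of the upper layers and Sox5 of the deep layers had none under this rule and are not analysed here. The 32 measured genes were 12 of the upper layers, 17 of the deep layers and the 3 general ones, and they had 62 probe sets in all.

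Upper-layer neurons mostly connect one cortical area with another, within or between the hemispheres. Deep-layer neurons send axons out of the cortex, to the thalamus, brainstem and spinal cord. The identity of these classes is set by transcription factors that keep their layer-specific expression into adulthood, among them the CUX proteins in the upper layers and BCL11B, FEZF2 and TBR1 in the deep layers. The frontal cortex receives axons from the ventral hippocampus, the region disturbed in both surgical experiments of the series.

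Frontal cortex RNA was measured on 105 Affymetrix arrays in 3 experiments. In the lesion experiment, 12 arrays came from rats with a ventral hippocampal lesion and 10 from sham rats. In the tetrodotoxin (TTX) experiment, 11 arrays came from rats whose ventral hippocampus had been disrupted with this blocker of sodium channels, and 9 from sham rats. The neuroleptic experiment tested chronic dosing with clozapine, an atypical antipsychotic, or haloperidol, an antipsychotic that blocks dopamine receptors: 9 arrays were vehicle, 10, 9 and 8 were low, medium and high clozapine, and 9 each were low, medium and high haloperidol. The sources used here give neither strain, age and sex nor the dose amounts, the lesioning agent and the time between treatment and dissection. Nothing in the labels ties each array to an animal of its own, so p-values reflect only how far these samples scatter, and that scatter can be technical. Values were normalised separately in each experiment, so levels in different experiments are given side by side without comparison, and no gene's level is set against another's.

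The measured value was the log2 of the probe set's intensity. Array medians ran from 775.1 to 962.3 intensity units before normalisation, 0 pairs of arrays held identical values, and 8 arrays had a low correlation with the other arrays of their group. Precision is limited by how many arrays each group has. The sample numbers in the titles fall into 2 runs in the lesion experiment, 2 in the TTX experiment and 4 in the neuroleptic experiment, and the labels do not say what a run is. The drugs were spread unevenly over the 4 runs: clozapine, haloperidol and vehicle had 6, 8 and 2 arrays in run 1, 6, 8 and 2 in run 2, 12, 2 and 2 in run 3, and 3, 9 and 3 in run 4. The log2 ratio of the 3' to the 5' actin control probe sets, which rises as RNA is shortened, was 0.94 ± 0.12 (SD, n = 27) in the clozapine arrays and 1.04 ± 0.15 (SD, n = 27) in the haloperidol arrays. Its mean was 0.87 in run 3 and 1.13 in run 4; its part in the differences below was not tested.

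The labelled tissue carried the signal of these genes. In the sham and vehicle arrays, Cux2, a homeodomain factor of the upper layers, had mean log2 intensities of 12.11 ± 0.21 (SD, n = 10) in the lesion sham, 12.10 ± 0.08 (n = 9) in the TTX sham and 11.86 ± 0.13 (n = 9) in the vehicle group. Tle4, a co-repressor found in deep-layer neurons that project to the thalamus, was at 12.83 ± 0.20, 12.73 ± 0.13 and 12.81 ± 0.04 in the same groups. Neurod6, a basic helix-loop-helix factor of projection neurons, was at 13.49 ± 0.21, 13.42 ± 0.12 and 13.69 ± 0.09. Testing was limited, in each experiment, to the brightest 60% of probe sets, 18625 of 31042. Of the 32 measured genes, 27 passed in the lesion and TTX experiments and 28 in the neuroleptic experiment. Pou3f2, Mdga1, Otx1 and Ntsr1 fell below the filter in every experiment, and Syt6 passed in the neuroleptic arrays alone. Their values were low: Pou3f2, a POU-domain factor, averaged 5.21 in the lesion sham and 5.69 in the vehicle arrays, near the floor of 32 intensity units, and Ntsr1, a neurotensin receptor, 6.96 and 7.68.

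None of the tested layer markers was called, in any of the 12 comparisons, at an adjusted p under 0.05 by limma with Benjamini-Hochberg adjustment over all probe sets tested. In the heat map of differences both signs occur in every column, and the strongest colours lie in the row of Rorb under haloperidol.

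**Figure D1:**
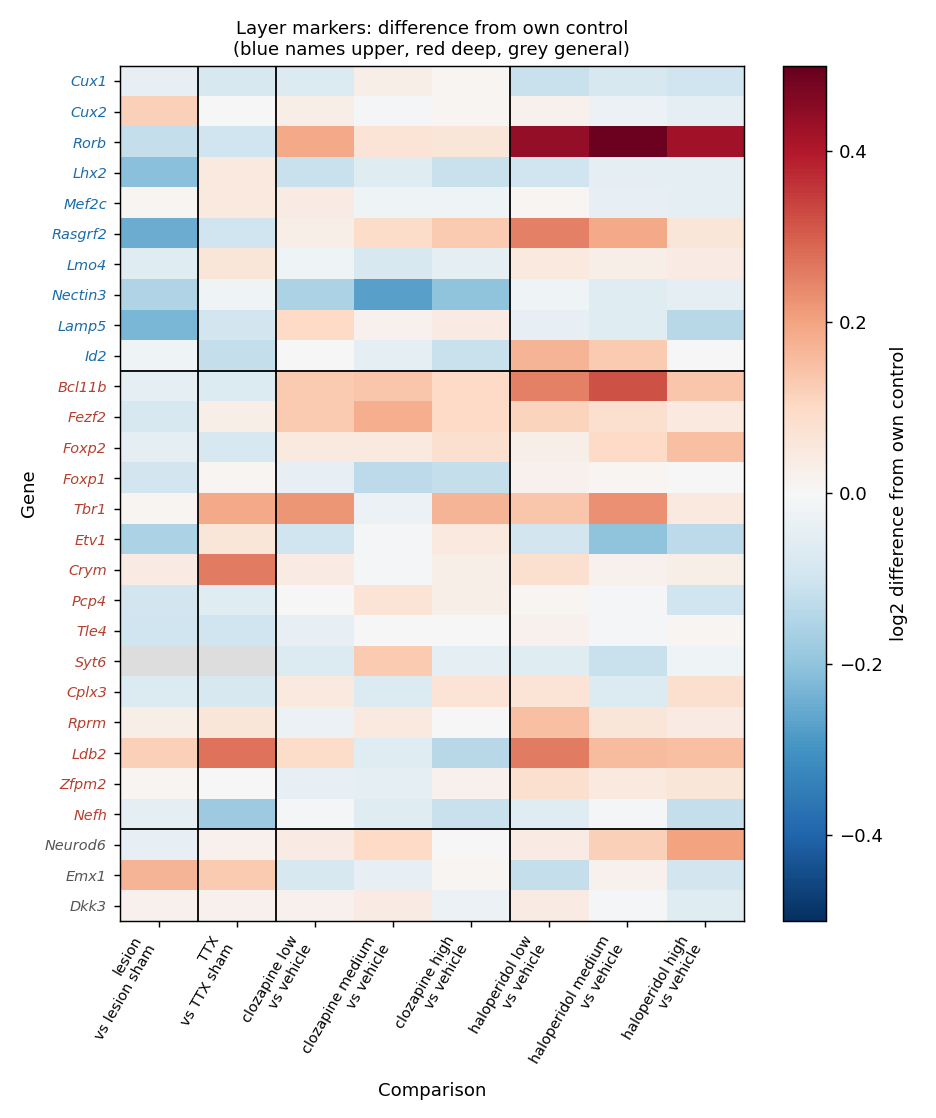
Log2 difference from the experiment's own control (colour, scale from -0.5 to 0.5) for the 28 layer markers tested in the neuroleptic arrays (rows; blue names upper layer, red deep layer, grey general) in 8 comparisons (columns). The 6 drug columns share the vehicle arrays; Syt6 is grey in the lesion and TTX columns, where it fell below the filter. Rorb is the darkest row, between 0.42 and 0.49 at the 3 haloperidol levels, and no cell passed the adjusted threshold.

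The lesion comparison asked whether loss of the ventral hippocampus changes transcripts of the frontal cortex. Of 27 layer markers tested, 0 were called, as were 0% of the 18625 probe sets; at an unadjusted p under 0.05 there were 2 of 27, against 7.79% of all probe sets. Lhx2 was the lower of these and Emx1 the higher. Among the upper-layer genes 8 of 10 were lower and 2 higher, with a median difference of -0.091. Among the deep-layer genes 9 of 14 were lower, with a median of -0.054, and the 3 general genes had a median of 0.016. The median over all probe sets was -0.001, with 49.5% higher. These list medians differed between the 2 runs. In run 1 the upper-layer median was 0.020, with 4 of 10 lower, and in run 2 it was -0.175, with 10 of 10 lower. The deep-layer median was -0.160 in run 1, with 12 of 14 lower, and 0.105 in run 2, with 4 of 14 lower, so neither list kept its direction in both runs. Over all probe sets the medians were -0.004 and 0.004. The difference between the runs was not tested. In tissue measured in bulk, fewer cells of a type and less RNA per cell cannot be told apart.

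Lhx2 encodes a LIM-homeodomain factor that helps to build the cortex and is kept in upper-layer neurons. Its log2 intensity ranged from 12.46 to 12.78 in the 10 sham arrays, with a median of 12.65, and from 12.07 to 12.66 in the 12 lesion arrays, with a median of 12.48. The groups overlapped, and 10 of the 12 lesion arrays lay below the sham mean. The difference was -0.21 ± 0.0717 (SE; limma unadjusted p = 0.00634, adjusted p = 0.55). It was -0.19 within run 1 and -0.24 within run 2 of the sample numbers. In the TTX experiment Lhx2 differed by 0.05 ± 0.0838 (SE, adjusted p = 0.999). The difference between the lesion and the TTX effect, from a joint fit of both experiments, was -0.27 ± 0.11 (SE) with an adjusted p of 0.711, which did not pass. The gene has 1 probe set.

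Emx1, a homeobox gene of the dorsal forebrain from which the projection neurons arise, ranged from 10.07 to 10.59 in the lesion sham arrays, with a median of 10.23. The lesion arrays ranged from 10.17 to 10.77, with a median of 10.40. The ranges largely overlapped, with 10 of 12 lesion arrays above the sham mean. The difference was 0.17 ± 0.0722 (SE, unadjusted p = 0.0247, adjusted p = 0.607), and it was 0.21 and 0.14 within the runs. After TTX it was 0.13 ± 0.0856 (SE, adjusted p = 0.999).

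Among the other upper-layer genes Rasgrf2 and Lamp5 had the lowest values. Rasgrf2, a guanine nucleotide exchange factor for RAS proteins, differed by -0.25 (95% interval -0.56 to 0.07), and this came from run 2, where it was -0.50, while run 1 gave 0.01. Lamp5, a membrane protein also found in a class of interneurons, differed by -0.23 (interval -0.49 to 0.03), with -0.26 and -0.20 in the runs. Cux2 stood at 0.12 (-0.06 to 0.30) and Cux1, its paralog, at -0.04 (-0.22 to 0.15). These intervals all cover 0.

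Of the deep-layer genes, Etv1, an ETS-family factor, had the lowest value, -0.16 (95% interval -0.32 to 0.01). Bcl11b, the zinc-finger factor needed for axons to reach the spinal cord, differed by -0.05 (-0.33 to 0.23), Fezf2, which acts upstream of it, by -0.08 (-0.30 to 0.14), and Tbr1, the T-box factor of neurons that project to the thalamus, by 0.01 (-0.33 to 0.36). The deep-layer differences were less precise than most in this experiment, with a median SE of 0.129 against 0.085 over all probe sets. The within-group SD was 0.419 for Tbr1, 0.436 for Foxp2, 0.493 for Cplx3 and 0.506 for Rprm, against a median of 0.201 over all probe sets tested. In the neuroleptic arrays Tbr1 had 0.384, Foxp2 0.204, Cplx3 0.232 and Rprm 0.211, against a median of 0.218. Each array's median deviation over the 14 deep-layer genes from the experiment's mean shows the split by run. In run 1 it ran from 0.09 to 0.35 in the 5 sham arrays, all above the 6 lesion arrays at -0.11 to -0.02. In run 2 the groups overlapped, with -0.27 to 0.06 in the sham and -0.13 to 0.20 in the lesion arrays. The highest and the lowest of all were sham replicates 3 and 7. The split by run was looked at after the data were seen. How often other sets of 14 genes separate the groups within a run was not examined.

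With these spreads, the 95% interval of 26 of 27 genes lay within ±0.5 log2 units, a 1.41-fold change in either direction; the exception was Rasgrf2. For 8 genes, among them Cux1, Mef2c, Lmo4, Id2, Foxp1 and Tle4, it lay within ±0.25, a 1.19-fold change.

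**Figure D2:**
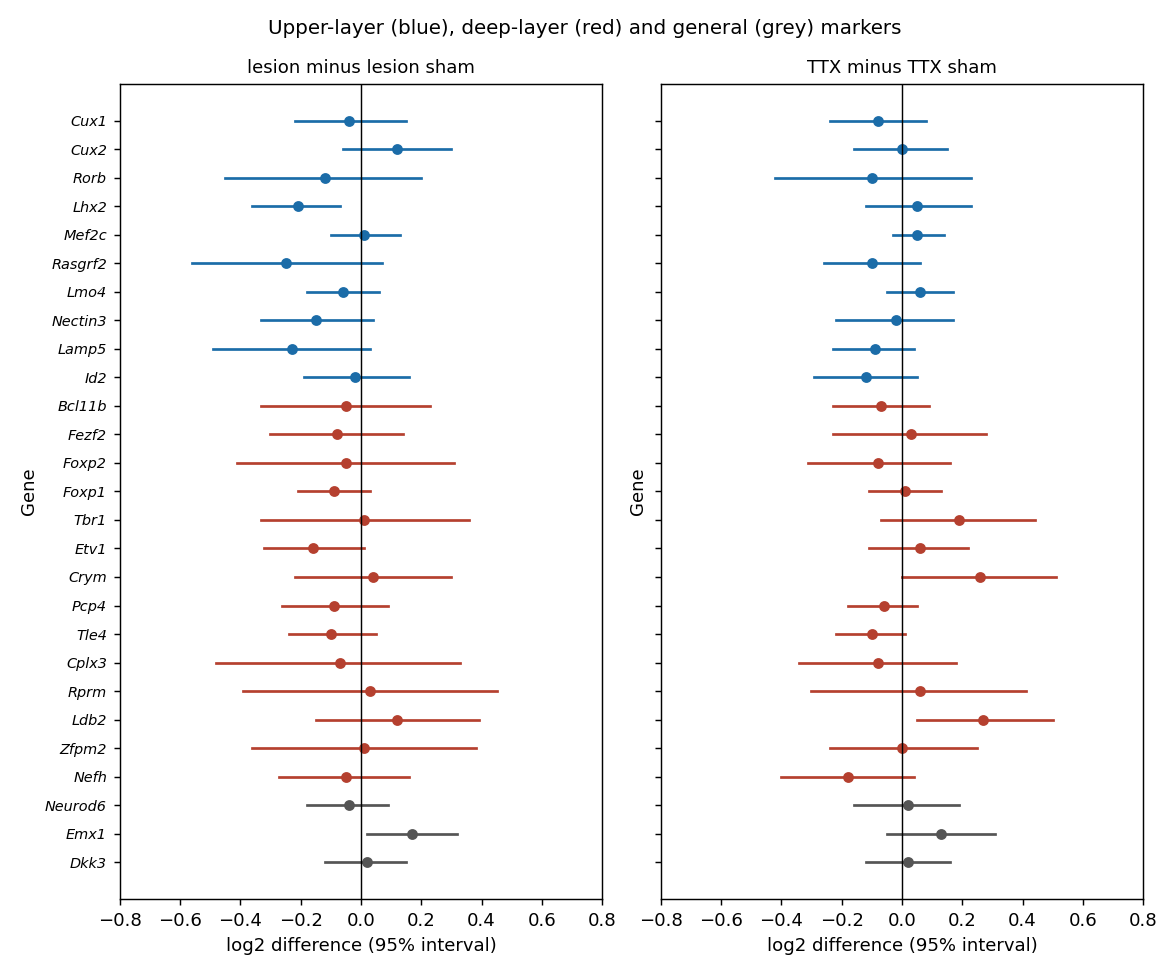
Log2 difference (points) with its 95% interval (lines) for the 27 layer markers tested in the lesion (left) and TTX (right) experiments, each against its own sham group; blue upper layer, red deep layer, grey general. The intervals of Lhx2 and Emx1 after the lesion, and of Ldb2 and, barely, Crym after TTX, leave out 0; none passed the adjusted threshold.

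The TTX comparison asked what follows when the hippocampal input is disturbed without a lesion. None of the 27 genes was called, with 0% of all probe sets called, and 2 of 27 had an unadjusted p under 0.05, against 4.66% of all probe sets. These were Ldb2 and Crym, deep-layer genes, and both were higher. With the runs as a term there were again 2, against 6.53% of all probe sets: Ldb2 at 0.29 ± 0.11 (SE, limma adjusted p = 0.761) and Lamp5, of the upper layers, lower at -0.11 ± 0.0479 (SE, unadjusted p = 0.0269, adjusted p = 0.761), while Crym had an unadjusted p of 0.0616. The median difference was -0.051 over the 10 upper-layer genes, of which 7 were lower. It was 0.007 over the 14 deep-layer genes, of which 8 were higher, and 0.022 over the 3 general genes. Over all probe sets it was -0.001, with 49.7% higher. Within runs 1 and 2 it was -0.150 and 0.025 in the upper layers and 0.050 and -0.055 in the deep layers, against -0.002 and -0.003 over all probe sets.

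Ldb2 encodes a cofactor that binds LIM-domain proteins such as LHX2 and marks neurons that project below the cortex. It ranged from 10.76 to 11.49 in the 9 TTX sham arrays, with a median of 11.26, and from 10.96 to 11.81 in the 11 TTX arrays, with a median of 11.61. The groups overlapped, and 9 of 11 TTX arrays lay above the sham mean. The difference was 0.27 ± 0.11 (SE, unadjusted p = 0.0209, adjusted p = 0.999). It was 0.49 within run 1 and 0.07 within run 2, so most of it came from one run. Crym, a thyroid hormone-binding protein, gave 0.26 (95% interval 0.00 to 0.51), with 0.42 in run 1 and 0.05 in run 2. Nefh, the heavy neurofilament subunit of large projection neurons, gave -0.18 (-0.40 to 0.04), with -0.36 and -0.02 in the runs.

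For 25 of 27 genes the 95% interval of the TTX difference lay within ±0.5, and for 14 of them within ±0.25. Those outside ±0.5 were Crym and Ldb2. In the joint fit of lesion minus TTX, 0 of 27 genes were called, with 0% of all probe sets, and 1, Lhx2, had an unadjusted p under 0.05, against 6.33% of all probe sets.

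The neuroleptic comparisons asked how the drugs act on the frontal cortex at each dose level. All 6 dose levels were compared with the same 9 vehicle arrays, so a shift in those arrays enters every one of them. Averaged over the 3 clozapine levels, 0 of 28 genes were called, with 0% of all probe sets called, and 0 had an unadjusted p under 0.05, against 3.82% of all probe sets. The medians were -0.003 for the upper layers, 0.008 for the deep layers and 0.010 for the general genes. All 28 intervals lay within ±0.5, and 19 within ±0.25. At single clozapine levels 0 of 28 were called at low, medium and high dose, where 0%, 0.0215% and 0.00537% of all probe sets were. An unadjusted p under 0.05 was reached by 0, 1 and 0 of 28, beside 2.72%, 4.05% and 3.88% of all probe sets. Foxp1, a forkhead factor, was the single layer marker with an unadjusted p under 0.05 at any of them, -0.13 ± 0.0655 (SE, p = 0.0473, adjusted p = 0.984) at medium dose. With the runs as a term this was -0.04 (unadjusted p = 0.409), and the single one was Ldb2 at high dose, at -0.20 ± 0.0983 (SE, unadjusted p = 0.0488, adjusted p = 1).

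For haloperidol averaged over its 3 levels, 0 of 28 genes were called, against 0.0215% of all probe sets, and 2 of 28 had an unadjusted p under 0.05, against 6.77%. These 2 were Rorb and Bcl11b, both higher. Bcl11b is also expressed by striatal neurons. Beside it 5 of 8 striatal genes were higher and 3 lower, from -0.12 to 0.25, with a median of 0.090. Pde10a and Rgs9, a phosphodiesterase and a regulator of G protein signalling, had the smallest p of the 8. They were named after their values were seen, outside the rule for naming genes. Pde10a was at 0.22 ± 0.084 (SE, limma unadjusted p = 0.0106, adjusted p = 0.651) and Rgs9 at 0.25 ± 0.109 (unadjusted p = 0.0241, adjusted p = 0.668). Npy, a neuropeptide of interneurons, was at -0.15 ± 0.0488 (SE, adjusted p = 0.571). At high dose alone Npy was at -0.26 ± 0.0598 (SE, limma unadjusted p = 4.57e-05, adjusted p = 0.0946). There 8 of 10 interneuron genes were lower and 2 higher, with 0 called. The part of these cells in the values of Rorb and Bcl11b was not tested. The medians were -0.023 for the upper layers, 0.043 for the deep layers, where 11 of 15 genes were higher, and -0.010 for the general genes, beside -0.013 and 43.1% higher over all probe sets. At low dose 12 of 15 deep-layer genes were higher, with a median of 0.075; over all probe sets the median was -0.011, with 45.2% higher. At low, medium and high dose 0 of 28 were called, where 0%, 0.00537% and 0.0268% of all probe sets were. At an unadjusted p under 0.05 there were 2, 3 and 1 of 28, beside 4.25%, 4.69% and 7.74%.

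Rorb encodes a nuclear receptor that marks the granular layer receiving thalamic axons. In the vehicle arrays it ranged from 9.59 to 11.05, with a median of 10.29. At low haloperidol it ranged from 10.27 to 11.16 with a median of 10.90, at medium from 9.96 to 11.27 with a median of 10.83, and at high from 9.70 to 11.48 with a median of 10.84. Each haloperidol group overlapped the vehicle group over most of its range, and 21 of the 27 haloperidol arrays lay above the vehicle mean. The mean over levels was 0.45 ± 0.172 higher (SE, unadjusted p = 0.0112, adjusted p = 0.651), without a rise from level to level (0.44, 0.49 and 0.42). Within the runs it was 0.08, 0.97, 0.87 and 0.28, on 2 or 3 vehicle arrays each. The clozapine mean was 0.11 ± 0.172 above vehicle (SE, adjusted p = 0.978).

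The other probe set of Rorb went the other way, -0.10 ± 0.102 (SE, adjusted p = 0.957) for the haloperidol mean. A rise of the Rorb transcript is thus not shared by its 2 probe sets.

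Bcl11b ranged from 12.30 to 12.78 in the vehicle arrays, with a median of 12.50, and from 12.32 to 13.35 at medium haloperidol, with a median of 12.83. The groups overlapped, and 8 of 9 medium-dose arrays lay above the vehicle mean. The difference at that dose was 0.32 ± 0.119 (SE, unadjusted p = 0.00964, adjusted p = 0.999); at low dose it was 0.25 ± 0.119 and at high dose 0.14 ± 0.119. Averaged over the levels it was 0.24 ± 0.0969 (adjusted p = 0.651), and within the runs -0.02, 0.71, 0.21 and 0.14. Of its 2 other probe sets, one gave 0.25 ± 0.201 and the other -0.09 ± 0.208 (SE) for the haloperidol mean.

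Etv1 ranged from 13.59 to 14.33 in the vehicle arrays, with a median of 14.01, and from 13.48 to 13.98 at medium haloperidol, with a median of 13.70. The groups overlapped, and 8 of 9 medium-dose arrays lay below the vehicle mean. The difference was -0.20 ± 0.0901 (SE, unadjusted p = 0.0321, adjusted p = 0.999). Its 4 other probe sets gave 0.12, 0.00, 0.27 and 0.08 at this dose, so none of them was clearly lower. Neurod6, with 1 probe set, was 0.20 ± 0.0917 (SE) higher at high haloperidol (unadjusted p = 0.0358, adjusted p = 0.609), and 9 of 9 arrays lay above the vehicle mean.

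**Figure D3:**
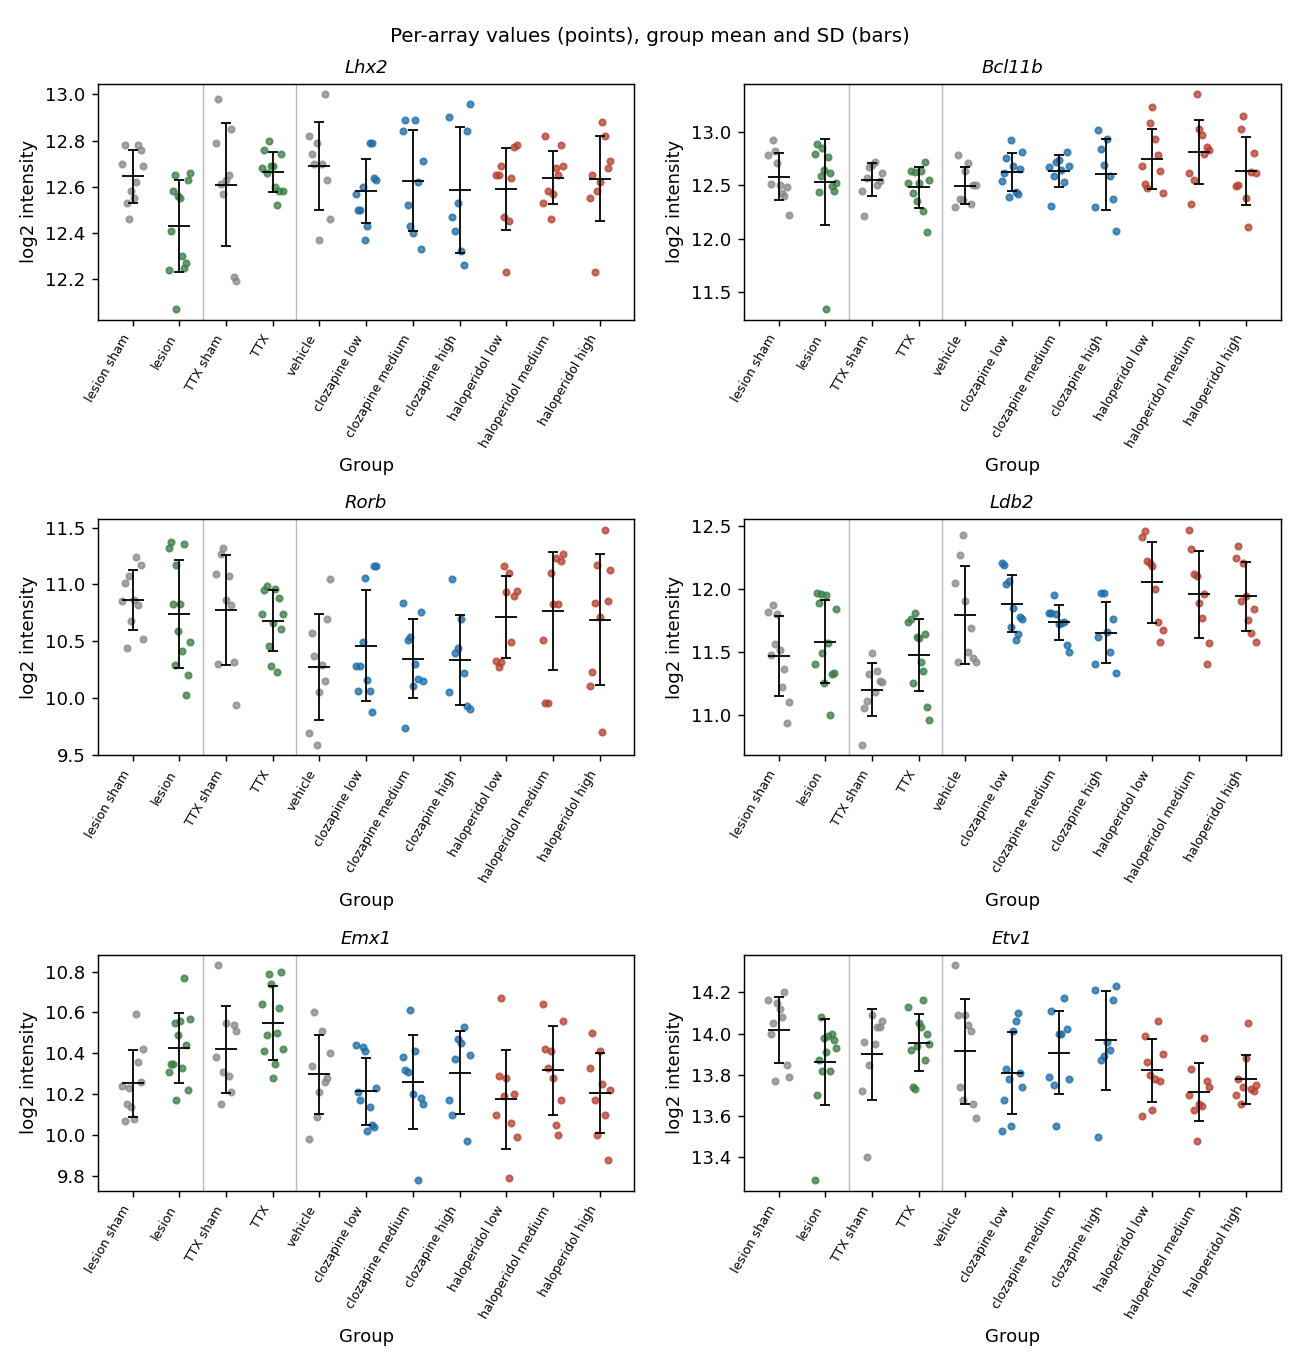
Log2 intensity of each array (points) with the group mean and SD (bars) for Lhx2, Bcl11b, Rorb, Ldb2, Emx1 and Etv1 in the 11 groups; grey sham or vehicle, green lesion or TTX, blue clozapine, red haloperidol, and vertical lines separate the experiments, which were normalised separately. Every treated group overlaps its own control.

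Clozapine and haloperidol were also compared with each other, each as the mean of its 3 levels; the levels are named alike in the labels but their amounts are not known to match. Of the 28 layer markers 0 were called, against 1.21% of all probe sets, and 9 had an unadjusted p under 0.05, against 15.2%. Lower under clozapine were Rorb, Ldb2, Foxp1, Id2, Nectin3 and Lmo4, and higher were Cux1, Lamp5 and Etv1. The median was -0.054 in the upper layers and -0.021 in the deep layers, against 0.012 over all probe sets. With the runs as a term in the fit, the number of probe sets called fell from 225 to 0, and 5 of 28 layer markers had an unadjusted p under 0.05 (Rorb, Bcl11b, Crym, Rprm and Ldb2), against 8.03% of all probe sets.

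Ldb2 ranged from 11.33 to 12.21 over the clozapine levels, with medians of 11.82, 11.74 and 11.64 at low, medium and high dose. Under haloperidol it ranged from 11.40 to 12.47, with medians of 12.18, 11.96 and 11.90. The drugs overlapped over most of this range, with the haloperidol medians above those of clozapine. The difference of clozapine minus haloperidol was -0.23 ± 0.0767 (SE, unadjusted p = 0.00455, adjusted p = 0.121), and with the runs as a term -0.23 ± 0.0602 (adjusted p = 0.243). Within the 4 runs it was -0.48, -0.06, -0.20 and -0.04, negative in each but large in the first. Without the arrays of low correlation with their group it was called, at -0.27 ± 0.0777 (SE, adjusted p = 0.0421). In that fit, which had no term for the runs, 450 of all probe sets were called.

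Rorb differed by -0.34 ± 0.122 between the drugs (SE, adjusted p = 0.141), and by -0.26 with the runs as a term. The runs gave 0.13, -0.51, -0.74 and -0.17, so run 1 went the other way. Foxp1 differed by -0.11 ± 0.0379 (adjusted p = 0.137), but by -0.03, -0.04, -0.04 and -0.03 within the runs and -0.03 with the runs as a term. Taken as the mean of its 5 probe sets, Foxp1 was called at -0.13 ± 0.0311 (SE, adjusted p = 0.0334). That fit had no term for the runs. Its value with such a term, and the share of all genes called in that fit, were not computed.

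Etv1 was 0.12 ± 0.0522 higher under clozapine by the probe set that represents it (SE, adjusted p = 0.237). One of its dimmer probe sets was called in the opposite direction, -0.43 ± 0.115 (SE, adjusted p = 0.0431), and lost the call with the runs as a term, at -0.35 ± 0.124 (adjusted p = 0.386). The other 3 gave -0.10, -0.02 and -0.02.

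**Figure D4:**
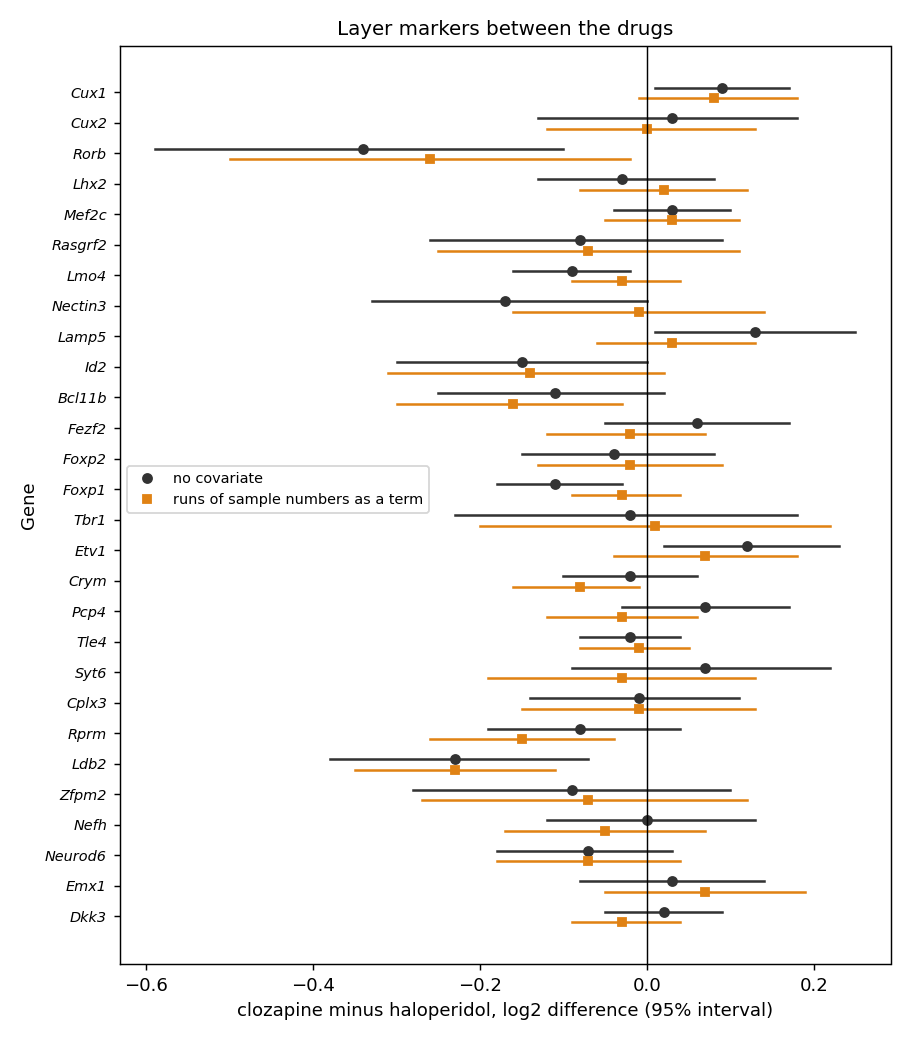
Clozapine minus haloperidol, log2 difference of the means over 3 dose levels (points) with 95% intervals (lines), for 28 layer markers, without a covariate (black circles) and with the 4 runs of sample numbers as a term (orange squares). Ldb2 stays at -0.23 under both, while Lamp5 moves from 0.13 to 0.03 and Nectin3 from -0.17 to -0.01.

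Layer markers also varied from array to array within groups, and whether pairs of genes shared this variation was examined. For 12 pairs of genes in 3 experiments (36 relations), deviations from the mean of the array's group within its run were correlated, with two-sided permutation tests of 1e+05 resamples and p-values adjusted over all 36. A single relation passed, and the share of pairs from all probe sets that pass this test was not computed. Bcl11b and Pcp4, a deep-layer gene for a small calmodulin-binding protein, correlated over 62 neuroleptic arrays at Pearson's r = 0.57 (permutation p = 0.00045, adjusted p = 0.0162) and Spearman's rho = 0.56 (permutation p = 0.00062, adjusted p = 0.0223). Without the 2 arrays farthest from the median of Bcl11b, r was 0.63. The same pair gave r = 0.52 in the TTX arrays (permutation p = 0.0324, adjusted p = 0.253) and -0.03 in the lesion arrays (permutation p = 0.917, adjusted p = 0.932).

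All 351 pairs of the 27 genes tested in every experiment were then examined, an analysis added after the data were seen. In the neuroleptic arrays 19 pairs had an r of at least 0.5 in size, which chose them and is a description. That is 5.41% of the pairs, against 2.31% of all pairs among the 18216 probe sets tested in every experiment. Of the 19, 13 kept their sign in both the lesion and the TTX arrays (68.4%), against 71.3% of the pairs chosen in the same way from all probe sets, a share near that background. For pairs from all probe sets, the share that passes a test in the lesion or TTX arrays was not computed. The counts that follow thus have no background beside them. Of the 38 relations of the 19 pairs tested there, adjusted together, 3 in the lesion arrays and 3 in the TTX arrays passed with that sign, and 1 pair passed in both.

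That pair was Lmo4, an upper-layer gene for a LIM-only adaptor protein, and Pcp4. Arrays with more Lmo4 had less Pcp4: r was -0.76 in the 62 neuroleptic arrays that chose it, -0.66 over 22 lesion arrays (permutation p = 0.00767, adjusted p = 0.0486) and -0.72 over 20 TTX arrays (permutation p = 0.00164, adjusted p = 0.0312). Spearman's rho was weaker, -0.50 (permutation p = 0.033, adjusted p = 0.105) and -0.63 (permutation p = 0.0104, adjusted p = 0.0921). Without the 2 arrays farthest from the median of Lmo4, r was -0.48 and -0.61. The swing was small in size, since Lmo4 ran from 15.65 to 15.91 and Pcp4 from 14.79 to 15.19 over the TTX sham arrays. The highest Lmo4 and the lowest Pcp4 came from the same array, TTX sham replicate 2, with the nearest arrays at 15.77 and 14.99. The r without this array alone was not computed. Lmo4 has 5 probe sets, and only the brightest was correlated. In the TTX sham arrays it had a geometric mean of 54470 intensity units, while array medians there averaged 858.0 before normalisation. This pair was not recomputed on the values as deposited. Pcp4 and Cplx3, a complexin of the deepest cortical layer, varied together, with r = 0.53 in the neuroleptic, 0.69 in the lesion (permutation p = 0.00345, adjusted p = 0.0328) and 0.47 in the TTX arrays (permutation p = 0.0663, adjusted p = 0.14). Spearman's rho was 0.52 (permutation p = 0.0182, adjusted p = 0.0921) and 0.27 (permutation p = 0.279, adjusted p = 0.423). Without the 2 arrays farthest from the median of Pcp4, r was 0.49 and 0.28.

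**Figure D5:**
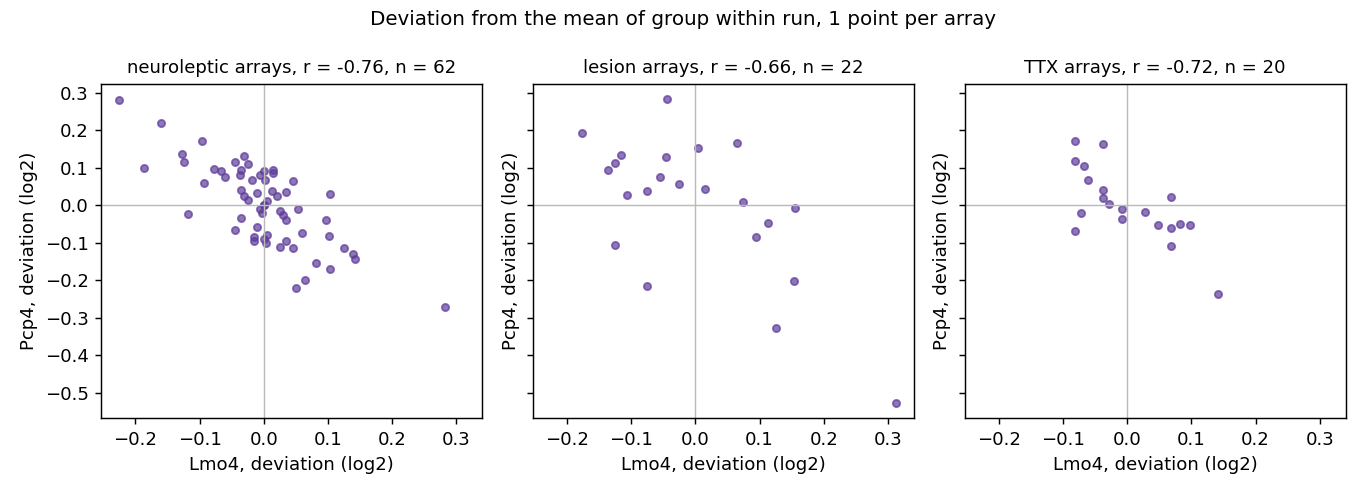
Deviation of Lmo4 (x, log2) and Pcp4 (y, log2) from the mean of the array's group within its run, 1 point per array, in the neuroleptic (n = 62), lesion (n = 22) and TTX (n = 20) experiments. The points fall from upper left to lower right in each panel, with r = -0.76, -0.66 and -0.72; 1 lesion array lies far to the lower right.

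The promoters of Lmo4 and Pcp4, the 1 pair that passed by Pearson's r in both the lesion and the TTX arrays, are shown. Whether they have a part in the correlation was not tested. The sequences are from RefSeq on the GRCr8 assembly, 250 bases before to 50 after the start, 5' to 3' on the gene's strand. Capitals mark CANNTG, the E-box that basic helix-loop-helix factors such as NEUROD6 bind; the motif reads alike on both strands.
Lmo4 (chr2:235941226-235941525, minus strand): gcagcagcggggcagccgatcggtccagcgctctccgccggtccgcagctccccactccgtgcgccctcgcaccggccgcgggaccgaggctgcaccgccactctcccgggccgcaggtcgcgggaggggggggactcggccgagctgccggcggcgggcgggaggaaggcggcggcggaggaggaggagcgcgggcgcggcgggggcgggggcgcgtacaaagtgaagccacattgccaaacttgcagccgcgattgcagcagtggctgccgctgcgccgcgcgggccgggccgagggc
Pcp4 (chr11:49269936-49270235, plus strand): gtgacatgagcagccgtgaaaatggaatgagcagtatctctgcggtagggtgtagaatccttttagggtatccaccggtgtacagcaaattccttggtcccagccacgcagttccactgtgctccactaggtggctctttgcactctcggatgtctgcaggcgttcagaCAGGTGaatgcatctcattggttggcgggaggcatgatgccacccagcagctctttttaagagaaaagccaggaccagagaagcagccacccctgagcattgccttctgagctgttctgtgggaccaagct
The Lmo4 window is 78.3% G and C and has 0 matches. The Pcp4 window is 53.3% G and C and has 1, CAGGTG. Of the 33469 promoters available, with no selection on length, 72.1% hold at least 1 match. Their median content of G and C is 51.7%. A match is a description of the letters, and its absence says nothing on the factor.

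Further layer and projection neuron genes, 30 listed and 24 tested, were read from the same fits. In the lesion comparison 17 of 24 were lower, with a median of -0.048 and 0 called. After TTX 17 of 24 were higher, with a median of 0.033 and 0 called. Over all probe sets 49.5% and 49.7% were higher, with a median of -0.001 in both comparisons. The values of this list are not given by run. The named genes with the smallest p were Bhlhe22, a helix-loop-helix factor, at -0.19 ± 0.0859 (SE, adjusted p = 0.622) after the lesion, and Trib2, a pseudokinase, at 0.13 ± 0.049 (adjusted p = 0.999) after TTX. At medium clozapine Neurod2, a helix-loop-helix factor of projection neurons, differed by -0.43 ± 0.123 (SE, adjusted p = 0.614) and Trib2 by 0.24 ± 0.0713 (adjusted p = 0.732). The single called gene was Ccn2, which encodes a secreted matricellular protein and marks the deepest cortical neurons but is also made by vascular cells. It ranged from 11.62 to 12.11 in the vehicle arrays, with a median of 11.75, and from 12.21 to 12.71 in the 8 high-clozapine arrays, with a median of 12.33. The groups did not overlap, and the share of all probe sets without overlap was not computed. Ccn2 was itself the 1 probe set called of 18625 at this dose (0.00537%). Its list was chosen with earlier results of these data known. Ccn2 rose by 0.60 ± 0.105 on the log2 scale (SE, adjusted p = 0.00553), and by 0.57 ± 0.103 with the runs as a term (adjusted p = 0.0136). At low and medium clozapine it differed by 0.13 and 0.18, and at low, medium and high haloperidol by 0.27 ± 0.102 (SE, unadjusted p = 0.00966, adjusted p = 0.999), 0.09 and 0.05; none of these passed. Cplx3, a member that marks the same cells, differed by 0.07 ± 0.111 at high clozapine (SE, adjusted p = 0.987). The summed intensity of 7 vascular genes ran from 14900 to 18900 in the vehicle and from 15400 to 19600 in the high-clozapine arrays, with 0 of 7 called; its part was not tested.

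Genes of other cell types were read from the same fits, and none passed the threshold apart from Npy between the drugs. After the lesion, Npy and Sst, neuropeptides of interneurons, differed by 0.41 ± 0.119 (SE, adjusted p = 0.508) and 0.34 ± 0.116 (adjusted p = 0.551), and Penk, an opioid precursor abundant in striatal neurons, by 0.39 ± 0.111 (adjusted p = 0.508). The 7 striatal genes tested went both ways, with 4 higher and 3 lower, from -0.20 to 0.45. Of the interneuron genes 8 of 10 were higher, with a median of 0.069. The oligodendrocyte genes, which encode myelin proteins and the factors that form it, were lower in 8 of 8 cases, with a median of -0.118, and their summed intensity ran from 168000 to 220000 in the sham and from 132000 to 234000 in the lesion arrays. After TTX 8 of 9 were lower, with a median of -0.136, and the sums ran from 184000 to 239000 in the sham and from 152000 to 237000 in the TTX arrays. None of these genes was called. Over all probe sets 49.5% were higher after the lesion and 49.7% after TTX. The values of these lists are not given by run. After TTX, Gnal, a G protein subunit abundant in the striatum, differed by 0.52 ± 0.0978 (SE, adjusted p = 0.499), and 7 of 8 striatal genes were higher. The summed intensity of the 9 measured striatal genes ran from 22900 to 28700 in the TTX sham and from 24100 to 28600 in the TTX arrays. Between the drugs, Npy was called, 0.15 ± 0.0346 higher under clozapine (SE, adjusted p = 0.0241), in the comparison that lost all calls with the runs as a term. The part of these cell types in the layer markers' values was not tested.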

How the data were processed

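The authors deposited 1 linear intensity per probe set and array for 31099 probe sets. Which scanning and summarisation software made them is not given in the sources used here. Per array, a mean trimmed by 2% at both ends gave 2500.6 to 2500.8 for the deposited intensity values, so they were already scaled. Each experiment was then quantile-normalised on its own, values under 32 were set to 32, and log2 was taken, so differences at the lowest levels are understated; 6.04% of values lay below that floor. The 57 control probe sets were dropped, and the 60% with the highest mean were tested, 18625 per experiment.

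Linear models were fitted with limma 3.58.1 in R 4.3.3 (lmFit and eBayes, 1 mean per group, no covariate; 7 neuroleptic groups in 1 fit, and a joint fit for lesion minus TTX), with Benjamini-Hochberg adjustment over all probe sets tested and a call at adjusted p under 0.05. The fits were tested on simulated data. Figures used Python 3.11.15 with matplotlib 3.10.9.

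Gene symbols came from the platform annotation, where 20826 probe sets had 1 symbol, 436 several and 9780 none; probe sets with several were not used. Promoter sequences were matched by symbol for 22 of the 32 measured genes. Per-array values are given for the 6 genes with the smallest unadjusted p against an own control, since fewer than 6 had a p under 0.01. Of the further layer genes the called ones, or the 2 with the smallest p, may be named, and of other cell types genes with a p under 0.01, at most 2 a list. Pde10a and Rgs9 under haloperidol were named outside this rule. Members and lists were chosen with earlier results of these data known. The alternatives changed the scaling, floor, filter, probe set rule, array weights, runs and arrays included. The analysis of all gene pairs, the list medians within runs, the fits of single other probe sets with the runs as a term, and the values of Ccn2, were added after the data were seen.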

Additional observations from a re-analysis of the deposited data

Results flagged for a closer look

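Arrays far from the rest of their group were sought for each tested layer marker in the 9 groups of 8 to 10 arrays; the lesion and TTX groups, with 12 and 11 arrays, were not examined. A gap to the nearest array above Dixon's critical value occurred in 12 of 250 combinations of gene and group (4.8%), where chance flags about 1 in 20.

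TTX sham replicate 2 held 4 of the 12. It was highest for Lmo4 at 15.91, with the nearest array at 15.77, and lowest for Foxp2 at 9.78 (nearest 10.63), Pcp4 at 14.79 (nearest 14.99) and Cplx3 at 9.40 (nearest 9.95). The upper-layer gene was thus high and the deep-layer genes low on the same array, whose 14 deep-layer genes had a median deviation of -0.23 and whose 10 upper-layer genes had one of -0.01.

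In the vehicle group Foxp2 was at 10.36 on replicate 3 (nearest 10.75) and Dkk3, a secreted glycoprotein gene of projection neurons, at 14.41 on replicate 7 (nearest 14.63), both lowest. Id2, which encodes an inhibitor of helix-loop-helix factors, was highest at 15.54 on high-clozapine replicate 2 (nearest 14.73) and at 15.35 on medium-clozapine replicate 1 (nearest 14.70). At low clozapine Zfpm2, a cofactor of GATA proteins, was lowest at 9.36 on replicate 6 (nearest 10.03) and Neurod6 lowest at 13.01 on replicate 2 (nearest 13.52). Under haloperidol Rasgrf2 was lowest at 10.52 on high-dose replicate 8 (nearest 11.79) and Neurod6 at 13.32 on low-dose replicate 7 (nearest 13.63). High-clozapine replicate 2 and high-haloperidol replicate 8 are among the 8 arrays of low correlation with their group.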

How the results depend on the processing

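Of 3947 values recomputed under an alternative, most by leaving out 1 array, 3925 were labelled the same. Single genes had to keep direction and side of the threshold, and list medians to move by less than the spread between arrays. A list median could thus change sign and keep the label. The deep-layer median after TTX did so, running from -0.07 to 0.025 as each array was left out. Counts had to stay close, and correlations to move by less than about their standard error, so a weak one could change sign. Most of the other 22 were correlations of fixed pairs, such as Fezf2 and Bcl11b in the lesion arrays, 0.57 and 0.10 without the 2 farthest arrays. The number of layer markers called was 0 under every alternative tried, with 2 exceptions, both in clozapine minus haloperidol. It was 1 with the mean of all probe sets of a gene (Foxp1), where the share of all genes called was not computed. It was also 1 without arrays of low correlation (Ldb2, at -0.27), where 450 probe sets were called in all against 225. The direction of Etv1 reversed with the mean of all probe sets, to 0.052 at medium haloperidol and to -0.091 between the drugs. The median of the general genes at high haloperidol moved to 0.069 with 40% of probe sets kept, which left fewer genes. The number of relations among fixed gene pairs that passed, of 36, rose from 1 to 6 when only the group, and not the run, was removed; the causes of the other changes were not tested. Leaving out each array in turn gave 0 layer markers called in every comparison; Lhx2 after the lesion ranged from -0.236 to -0.182, Ldb2 after TTX from 0.219 to 0.325 and Rorb for the haloperidol mean from 0.366 to 0.548. No paired analysis was possible because the labels carry no replicate numbers and those used follow the order of the samples. The deposited table holds no detection calls, so low signals could not be marked as background.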
